A study of Mus musculus with 12 samples.

Results

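The mouse genome holds 992 sites that resemble the 20 bases of gRNA3, the guide directed at the promoter of the cytokine gene Il33, but differ from it within the bases next to the PAM. They were found in mm10 (GRCm38) on both strands of the 21 assembled chromosomes as sequences with at most 5 mismatches and no gap, directly followed by an NGG PAM, with at least 1 mismatch among the 8 PAM-proximal bases. They are called broken-seed sites here and make up 992 of 1072 near-match sites of gRNA3, and 276565900 sites of the same chromosomes are followed by NGG. The other 80 near-match sites, the Il33 target among them, keep all 8 PAM-proximal bases and are called intact-seed sites. The rule uses the genome sequence alone and no peak.

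dCas9 is the nuclease-dead form of Cas9, which binds DNA without cutting it. Its complex with a guide RNA first recognises the PAM, then pairs the guide with the DNA strand base by base from the PAM outwards, so that a mismatch close to the PAM interrupts pairing early. The PAM-proximal stretch of the guide is called the seed for that reason, and predictions of off-target binding commonly weigh both the total number of mismatches and their distance from the PAM.

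Binding was measured in NIH-3T3 cells, a mouse fibroblast line, by sequencing the DNA that an antibody against FLAG precipitates from cross-linked chromatin (ChIP-seq). All cells carried lentiviral FLAG-tagged dCas9 marked by GFP, selected by cell sorting, and an empty vector in place of Cre recombinase, and were kept under high puromycin for a lentiviral guide that was either gRNA3 or gRNAscr, a scrambled guide. Each guide had 3 anti-FLAG and 3 input libraries, and only the anti-FLAG libraries have peak lists used here. A site was counted as having a peak in a library where a peak of that library overlapped the 23 bases of guide match and PAM by at least 1 base.

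The lists differed widely in size: dCas9:gRNA3 replicates 1, 2 and 3 gave 197, 2052 and 6685 peaks, and dCas9:gRNAscr replicates gave 293, 1163 and 88. The peaks covered 50309, 584014 and 2002104 bp with gRNA3 and 79059, 347028 and 23335 bp with gRNAscr. The study's methods call all of its replicates biological, while the labels name no separate cultures for these libraries, and the p-values measure the spread between the libraries. The total number of reads is not part of a peak list, so depth is unknown from these files and a site without a peak is a site where none was called at the depth of that library.

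The guide is shown with its 8 PAM-proximal bases in capitals, and its genomic target with the capital marking the difference from the guide. The first base of the guide was taken as G, as in a drawing of the study, while the genome and the supplementary alignment have C. Which base the cloned guide has is not known here. With C as the first base the class held 570 sites, and 1 of them had a peak in at least 1 gRNA3 library. The target lies on the plus strand of mm10 at chr19:29945780-29945802, in an exonic UTR of Il33, and ends in its PAM.
gRNA3: ggactgtgttagCTCTCCAC
Il33 target: Cgactgtgttagctctccaccgg
Below, differences are written as the guide base, its position (position 1 is the 5′ base of the guide) and the site base, so that position 20 touches the PAM and the target differs by G1C.

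The broken-seed sites closest to gRNA3 show what the class looks like. In all, 1 site differed at 2 positions and 6 sites at 3 positions, and 6 of these 7 are printed because few mismatches make them the strongest candidates by sequence alone. Capitals mark the mismatches, and the last 3 bases are the PAM. The remaining site, with 3 seed mismatches, is not printed.
Klhl29 site: ggactgtgttaCctcAccacagg
Sgsm1 site: ggactgtgGtGgctctGcacagg
Gm46329 site: ggactCtAttagctctccCctgg
Cartpt site: ggacCCtgttagctctGcacagg
Gm23909 site: ggactgtgGtTgcActccactgg
Gm7731 site: ggaTtgtTttagctctccaGtgg
The site in an intron of Klhl29, a gene for a kelch-like protein, lies on the minus strand at chr12:5200578-5200600 and differs by G12C and T16A. The site in an intron of Sgsm1, which encodes a regulator of small G proteins, lies on the minus strand at chr5:113281438-113281460 and differs by T9G, A11G and C17G. The other 4 lie between genes on the plus strand. They were found at chr12:57854433-57854455 (96756 bp from Gm46329), chr13:99865147-99865169 (33320 bp from Cartpt, the gene of a neuropeptide precursor), chr14:37345110-37345132 (92358 bp from Gm23909) and chr16:15207457-15207479 (9380 bp from Gm7731).

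None of these 7 sites had a peak in any of the 6 libraries, beside 0.127% of all sites before NGG. For so few sites a count of 0 is near the background and reads as nothing particular to them. The nearest peak of dCas9:gRNA3 replicate 3, the longest list, began 18321 bp from the Klhl29 site, and its fold enrichment over the local background at the summit was 5.44. In the same library the nearest peak was 770802 bp from the Sgsm1 site and 318133 bp from the Cartpt site. The Klhl29 site matches 18 of 20 guide bases, and its run of matching bases from the PAM stops after 4.

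Most of the class was farther from the guide. Of the 992 sites, 95 had 4 mismatches and 890 had 5, which is 89.7% of the class. Within the 8 PAM-proximal bases, 299 sites had 1 mismatch, 353 had 2, 273 had 3, 62 had 4 and 5 had 5. The run of matching bases counted from the PAM was 0 in 350 sites, 1 in 212, 2 in 73, 3 in 140, 4 in 56, 5 in 74, 6 in 36 and 7 in 51.

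**Figure D1:**
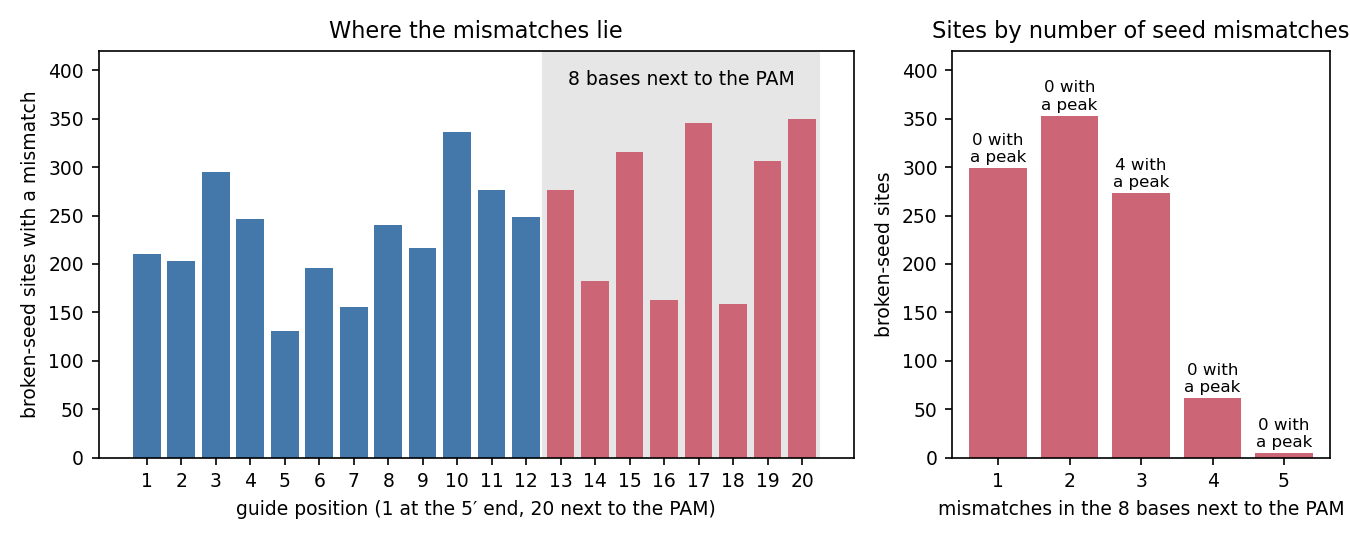
The left panel plots the number of the 992 broken-seed sites with a mismatch at each guide position, with the 8 PAM-proximal positions shaded and in red, and the right panel plots the sites by their number of mismatches in those 8 positions, with the number that had a peak in at least 1 gRNA3 library. Mismatches were most frequent at position 20 (350 sites) and least frequent at position 5 (131 sites), and all 4 sites with a peak had 3 seed mismatches. The rule itself requires at least 1 mismatch in the shaded positions, and copies of a sequence are counted separately.

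Mismatches were unevenly spread along the guide, in part because the rule asks for at least 1 mismatch among the 8 PAM-proximal bases. Copies of a sequence were also counted separately, and the largest family, described below, has 23 copies mismatched at positions 17 and 20 among others. Position 20 was mismatched in 350 sites, position 17 in 345 and position 10 in 336, while positions 5, 7 and 18 were mismatched in 131, 156 and 159. The most frequent single differences were C20G in 180 sites, C17G in 153, T10G in 149, A19T in 147 and A11T in 128. The first PAM base was A in 423 sites, T in 353, G in 181 and C in 35. A CpG, the dinucleotide at which mouse DNA is methylated, occurred within the 23 bases of 179 sites, and 0 of these had a peak in any library (exact Clopper-Pearson upper bound 2.04%), beside 0.127% of all sites before NGG.

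Many of the sites were copies of each other. The 992 sites held 902 different 20-base sequences, of which 876 occurred once, while 26 sequences were shared by 116 sites. The largest family had 23 copies, 22 of them on chromosome 5. Further families had 14 copies, 13 of them on chromosome 7, and 10 copies, all on chromosome 4, and another 10 copies of a different sequence were spread over several chromosomes. No broken-seed sites overlapped each other. Chromosome 5 held the most sites, 89, followed by chromosome 4 with 75.

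By the GENCODE M21 annotation, 537 sites (54.1%, exact Clopper-Pearson 95% interval 51.0 to 57.3%) lay within a gene, beside 47.9% of all sites before NGG. Exons held 68 sites (6.85%, 5.36 to 8.61%), beside 5.87% of all sites before NGG. Another 469 lay in genes outside exons and 455 between genes, and 79 sites (7.96%) were within 1000 bp of a transcription start, beside 7.40% of all. The middle base was soft-masked as a repeat in 93 sites (9.38%, 7.63 to 11.4%), beside 35.6% of all sites before NGG. These intervals treat copies as separate sites and cover counting error only. Of the 100 sites with at least 12 of their 23 bases soft-masked, 0 had a peak (upper bound 3.62%), beside the same 0.127% of all sites.

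The first comparison asked how many broken-seed sites had a peak with gRNA3 and with gRNAscr, which measures the background at the same positions. With dCas9:gRNA3, 1, 1 and 4 of the 992 sites had a peak in replicates 1, 2 and 3, a mean of 2 ± 1.73 (SD, n = 3). With dCas9:gRNAscr, 1 site had a peak in each of the 3 libraries, a mean of 1 ± 0 (SD, n = 3). Replicates 1 and 2 of gRNA3 therefore equalled the control, and only replicate 3 was above it. The difference of 1 site per library gave p = 1 in a two-sided exact permutation test over 20 assignments of the libraries, for which the smallest possible p is 0.1. The difference depended on the length of the seed. With a seed of 10 bases, where sites with 8 or 9 matching PAM-proximal bases also count as broken, it was 3.67 sites. With a seed of 12, where those with 8 to 11 matching bases do, it was 5.33 sites (both p = 0.1 by the same exact test).

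As shares, 0.101% of broken-seed sites had a peak in gRNA3 replicates 1 and 2 (exact Clopper-Pearson 95% interval 0.00255 to 0.560%) and 0.403% in replicate 3 (0.110 to 1.03%). Of all sites before NGG, 0.00283, 0.032 and 0.11% had a peak in the same 3 libraries. In each gRNAscr library the share of broken-seed sites was 0.101%, beside 0.00415, 0.018 and 0.0012% of all sites before NGG. The interval held the background share in replicates 1 and 2 of both guides. In gRNA3 replicate 3 its lower bound was level with the background, and in gRNAscr replicate 3, where the share rested on 1 site of a repeated sequence, it was above the background. Without sites that share their 20 bases, 0, 0 and 2 of 876 sites had a peak with gRNA3 and none with gRNAscr.

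In at least 1 gRNA3 library, 4 broken-seed sites (0.403%) had a peak, beside 0.121% of all sites before NGG. In at least 1 gRNAscr library it was 1 site (0.101%), beside 0.0197%, and that site was also among the 4. No broken-seed site had a peak in at least 2 gRNA3 libraries and no gRNAscr library, which bounds the share at 0.371% by the exact Clopper-Pearson interval, and the share of all sites before NGG was 0.0154%. In all 6 libraries 1 broken-seed site had a peak, beside 0.000235% of all sites before NGG, and over all libraries 4 sites had a peak in any of them, beside 0.127%.

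**Figure D2:**
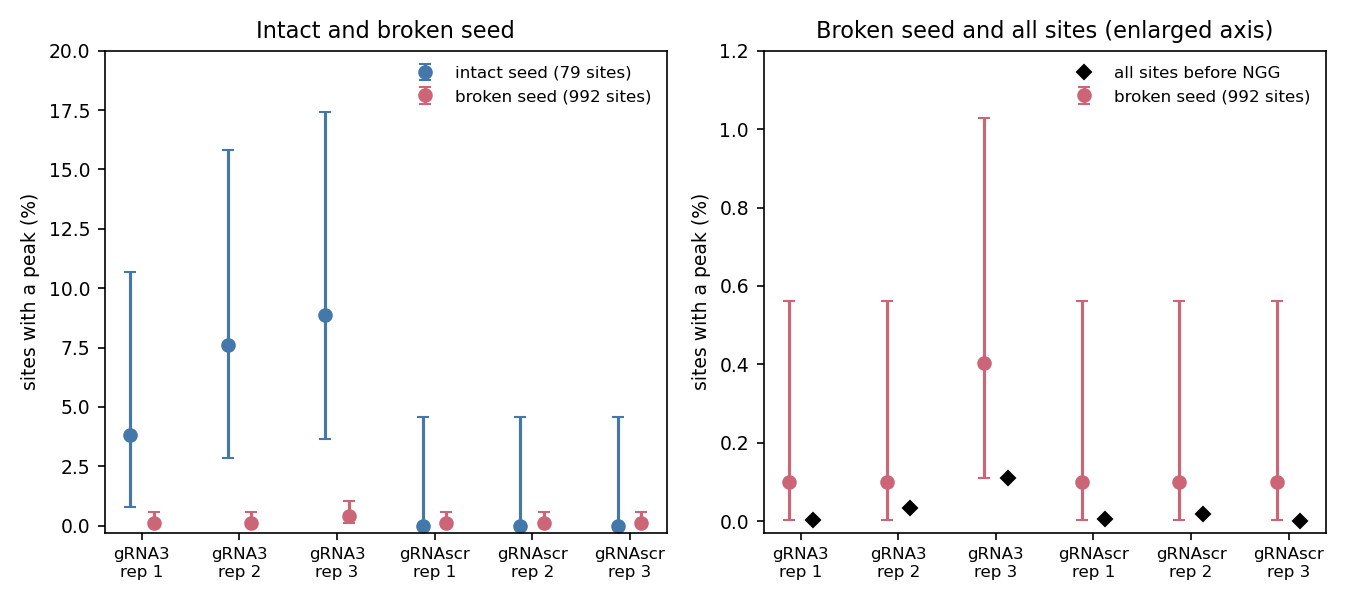
Both panels plot the percent of sites with a peak in each anti-FLAG library, with bars for the exact Clopper-Pearson 95% interval. The left panel compares 79 intact-seed sites (3.80 to 8.86% with gRNA3 and 0 with gRNAscr) with the 992 broken-seed sites, and the right panel, on an enlarged axis, sets the broken-seed sites (0.101 to 0.403%) beside all sites followed by NGG (black diamonds).

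The 4 broken-seed sites with a peak are printed because all peaks of the class rest on them. Each had 5 mismatches, 3 of them in the seed, and capitals mark the mismatches.
Focad site: TgactgtgtCagctGCcTacagg
Gm21149 site: ggaTtgtAttagGtctTcaTggg
Gm21083 site: ggaTtgtAttagGtctTcaTggg
Tmem19 site: gAactgAgttagctTtcAaGtgg
In 3 of the 4 sites the base that touches the PAM was mismatched, by C20T in the Gm21149 and Gm21083 sites and C20G in the Tmem19 site. The Focad site kept 2 matching bases next to the PAM before its mismatch C18T.

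The Gm21149 site, on the minus strand at chr5:15473244-15473266, lies in an intron shared by the gene models Gm21149 and Gm43391 and belongs to the family of 23 copies. It had a peak in all 6 libraries. Fold enrichment at the summit was 6.86, 7.69 and 10.97 in dCas9:gRNA3 replicates 1, 2 and 3, and 10.5, 7.31 and 8.22 in dCas9:gRNAscr replicates 1, 2 and 3. The ranges of the guides overlapped. By fold enrichment the peak was ranked 103 of 197, 149 of 2052 and 87 of 6685 in gRNA3 replicates 1, 2 and 3. It was ranked 13 of 293, 162 of 1163 and 25 of 88 in gRNAscr replicates 1, 2 and 3. In gRNA3 replicate 1 the peak reached the site by 1 base.

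The other 3 sites had a peak in dCas9:gRNA3 replicate 3 alone. The Focad site lies in an intron of Focad, which encodes the focal adhesion protein focadhesin, on the minus strand at chr4:88214146-88214168, and its peak had a fold enrichment of 5.52 and ranked 2907 of 6685. The nearest peaks of gRNA3 replicates 1 and 2 were 1264806 and 229185 bp away. The Gm21083 site lies on the plus strand at chr5:15580530-15580552 in an intron of Gm21083 and of overlapping gene models, has the same 20 bases as the Gm21149 site, and had a peak of 6.08-fold enrichment, ranked 2025. The Tmem19 site, on the plus strand at chr10:115332343-115332365, lies 7309 bp from Tmem19, which encodes a transmembrane protein, and its peak had a fold enrichment of 4.80 and ranked 4114.

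None of these peaks had its summit, the point of highest pileup, at the site. Over the 6 pairs of site and gRNA3 peak the summit lay 84 to 108 bp from the 23 bases (median 98 bp), and over the 3 gRNAscr peaks it lay 65 to 134 bp away (median 91 bp). No broken-seed site had a summit within 50 bp in any library, beside 0.00132, 0.0133 and 0.044% of all sites before NGG in gRNA3 replicates 1, 2 and 3 and 0.00177, 0.00716 and 0.000499% in gRNAscr replicates. The longest stretch of gRNA3 from the PAM inwards that was followed by NGG anywhere under these peaks was 2 or 3 bases.

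The family of 23 copies, 22 of them on chromosome 5, recurred around these values. Of its copies, 2 had a peak in some library and 3 had one within 1000 bp. The third copy, on the minus strand at chr5:15653799-15653821 in 4930572O03Rik, had a peak 208 bp away in gRNA3 replicate 3 and 292 and 661 bp away in gRNAscr replicates 2 and 3. A relative of the family that differs from it at position 13 (C13A in place of C13G) lies on the plus strand at chr5:15622328-15622350 in an intron of Speer4d, a gene of a multicopy family expressed in testis. It had peaks 133 and 86 bp away in gRNA3 replicates 1 and 3, with fold enrichments of 8.03 and 5.84, and 156 and 98 bp away in gRNAscr replicates 1 and 2, with fold enrichments of 7.83 and 5.66. Peaks beside this family thus occurred with both guides. Reads from such near-identical copies may not be assignable to 1 copy, so which copy carried a peak is uncertain.

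Within 200 bp, 5 broken-seed sites (0.504%) had a peak in at least 1 gRNA3 library, beside 0.24% of all sites before NGG, and 2 sites (0.202%) in at least 1 gRNAscr library, beside 0.0399%. By library these were 2, 1 and 5 sites with gRNA3 and 2, 2 and 1 with gRNAscr. Within 1000 bp, 2, 1 and 7 broken-seed sites had a peak in gRNA3 replicates 1, 2 and 3, beside 0.019, 0.196 and 0.648% of all sites before NGG, and 2, 3 and 2 sites in gRNAscr replicates, beside 0.0268, 0.11 and 0.00785%. As shares these were 0.202, 0.101 and 0.706% with gRNA3 and 0.202, 0.302 and 0.202% with gRNAscr. Within 10000 bp, 10, 27 and 71 sites had a peak with gRNA3 (1.01, 2.72 and 7.16%, beside 0.158, 1.58 and 4.9%) and 10, 15 and 7 with gRNAscr (1.01, 1.51 and 0.706%, beside 0.216, 0.901 and 0.0623%). The share of broken-seed sites was above that of all sites in each library at this distance, and the exact Clopper-Pearson interval held the background share in gRNAscr replicate 2 (0.849 to 2.48%) but in none of the other 5 libraries. Among the 876 sites whose 20 bases occur once, the counts were 5, 19 and 59 with gRNA3 (0.571, 2.17 and 6.74%) and 5, 10 and 1 with gRNAscr (0.571, 1.14 and 0.114%), and the intervals held the background in gRNA3 replicate 2 and in all 3 gRNAscr libraries. The median distance from a broken-seed site to the nearest peak on its chromosome was 5.26, 0.713 and 0.214 Mb with gRNA3. With gRNAscr it was 4.47, 1.19 and 14.5 Mb, and the medians followed the number of peaks in each list. They cover the sites with any peak on their chromosome. These were 991 sites in gRNA3 replicate 1, 923 in gRNAscr replicate 3 and all 992 in the other libraries.

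The next comparison asked how peaks were spread over the number and position of mismatches. None of the 102 sites with at most 4 mismatches had a peak in any library (exact Clopper-Pearson upper bound 3.55%), and the 4 with a peak were among the 890 sites with 5 mismatches (0.449%, 0.123 to 1.15%). None of the 652 sites with 1 or 2 seed mismatches had a peak (upper bound 0.564%), and 4 of the 340 sites with 3 or more did (1.18%, 0.321 to 2.98%). By position, 4 of 635 sites with a mismatch among the 3 bases next to the PAM had a peak, and 0 of the 357 sites without one (upper bound 1.03%). Of all sites before NGG, 0.121% had a peak in at least 1 gRNA3 library, so each of these counts of 0 is near the background and reads as nothing particular to its group. The 4 sites with a peak include 2 copies of 1 sequence, and 3 of the 4 sites had a peak in 1 library only.

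The sites just inside and just outside the limit of the class can be set side by side. Where the mismatch nearest the PAM was at position 13, so that 7 matching bases touched the PAM, none of 51 sites had a peak with either guide (upper bound 6.98%). Of all sites before NGG, 0.121% had a peak in at least 1 gRNA3 library and 0.0197% in at least 1 gRNAscr library. The 0 of 51 is thus near the background. Where it was at position 12, so that 8 matching bases touched the PAM, 3 of 48 intact-seed sites had a peak in at least 1 gRNA3 library (6.25%, 1.31 to 17.2%) and none with gRNAscr. Most sites on either side of the limit had no peak. This is a description of sites within the same libraries, and the difference was not tested.

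With the closest seeds, 11 broken-seed sites had at most 4 mismatches and their only seed mismatch at position 13 or 14, and the 10 first by mismatches and position are described. None had a peak in any library, beside 0.127% of all sites before NGG, so this count is also near the background. A pair of them is printed as examples of a seed broken at its outermost base, with the mismatches in capitals.
Plb1 site: ggactgGAAtagGtctccactgg
Cmss1 site: ggactgAgtGGgGtctccactgg
The Plb1 site, on the minus strand at chr5:32356513-32356535 in an intron of the phospholipase gene Plb1, differs by T7G, G8A, T9A and C13G. The Cmss1 site, on the minus strand at chr16:57322248-57322270 in an intron of Cmss1, differs by T7A, T10G, A11G and C13G. In 6 of the 10 sites the seed mismatch was C13G. Besides these, the 10 sites lay in an intron of the olfactory receptor gene Olfr301, in an exon of Gm49774 and between genes near Gm23909, Gm28002, Usp12, Gm30524, Gm5369 and Gm24164.

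For comparison, the 79 intact-seed sites other than the Il33 target have the same limit of 5 mismatches but keep the 8 PAM-proximal bases. Of these, 3, 6 and 7 had a peak in gRNA3 replicates 1, 2 and 3 (3.80, 7.59 and 8.86%), a mean of 6.75% ± 2.64 (SD, n = 3). None had a peak in any gRNAscr library (upper bound 4.56%). In every gRNA3 library the share exceeded that of the broken-seed sites, and in every gRNAscr library it did not.

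Intact minus broken, the share with a peak differed by 3.70, 7.49 and 8.46 percentage points in gRNA3 replicates 1, 2 and 3 (6.55 ± 2.52, SD, n = 3) and by -0.101 in each gRNAscr library. The guides differed by 6.65 percentage points, with p = 0.1 in the two-sided exact permutation test, the smallest p that 3 libraries against 3 allow, so the threshold of 0.05 could not be reached. The 6 values did not overlap between the guides. The size depended on the definition of a site: it was 2.10 percentage points with a seed of 5 bases, 3.29 with NAG PAMs admitted and 12.3 with a seed of 10 (each p = 0.1 by the exact test), and 16.2 with a seed of 12, where 6 intact-seed sites were left and the exact p was 0.4. Peaks in at least 2 gRNA3 libraries and no gRNAscr library were found at 5 of 79 intact-seed sites (6.33%, 2.09 to 14.2%) and at 0 of 992 broken-seed sites, beside 0.0154% of all sites before NGG.

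**Figure D3:**
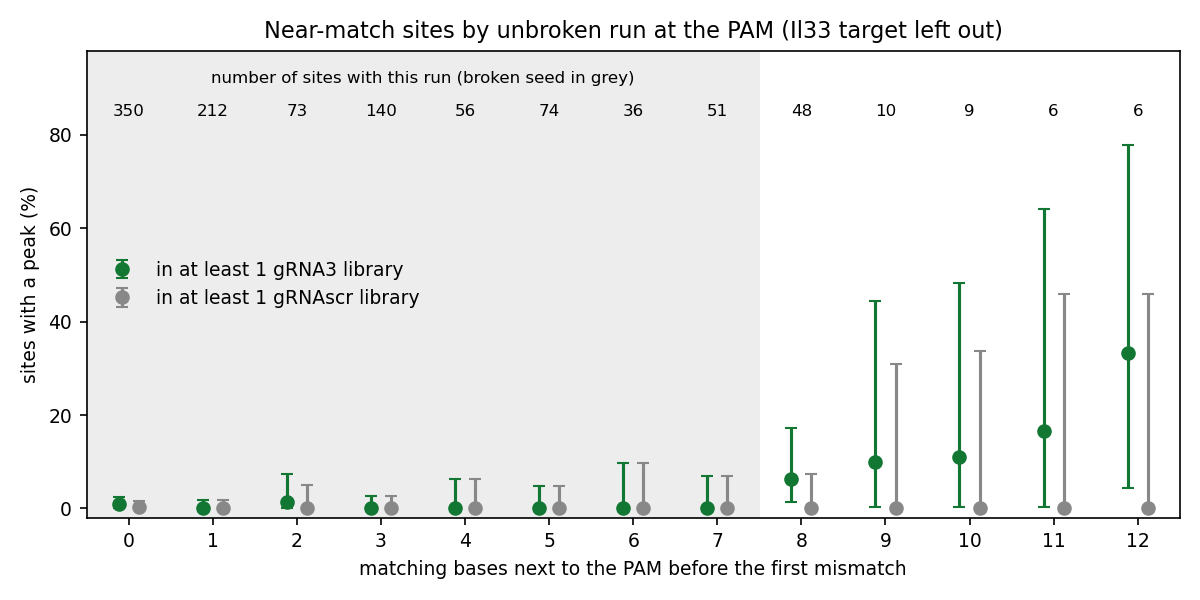
The percent of near-match sites with a peak in at least 1 gRNA3 library (green) or at least 1 gRNAscr library (grey) is plotted against the number of matching bases next to the PAM before the first mismatch, with exact Clopper-Pearson 95% intervals and the number of sites above each pair. Over runs of 0 to 7 bases 4 of 992 sites had a gRNA3 peak, and over runs of 8 to 12 bases 8 of 79 sites did, with wide intervals for the 6 to 10 sites of each run above 8.

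Besides the Il33 target, 3 intact-seed sites had a peak in all 3 gRNA3 libraries. A pair of them is printed as examples of a bound near-match site, with mismatches in capitals. They do not stand for the class, since 8 of the 79 intact-seed sites had a peak in at least 1 gRNA3 library.
Rab22a site: gTacAgCTGtagctctccactgg
Tmprss6 site: gCaAGgAgttaActctccactgg
Both had 5 mismatches, as many as the broken-seed sites with a peak, but all lay at positions 1 to 12. The Rab22a site, on the minus strand at chr2:173688742-173688764 in an intron of the small GTPase gene Rab22a, had peaks of 8.87-, 12.6- and 11.3-fold enrichment in gRNA3 replicates 1, 2 and 3. The Tmprss6 site, on the plus strand at chr15:78449891-78449913 in an intron of the serine protease gene Tmprss6, had peaks of 4.99-, 3.68- and 3.72-fold enrichment. Neither had a peak with gRNAscr. The remaining site, on the minus strand at chr12:52702774-52702796 in an intron of Akap6, had 3 mismatches. Its peaks in gRNA3 replicates 1, 2 and 3 were of 16.9-, 18.5- and 28.6-fold enrichment, above those of the printed pair, and it had none with gRNAscr.

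Summits also differed in position between the classes. At the 9 intact-seed sites with a peak, the Il33 target included, the median distance from the summit to the 23 bases was 2 bp over 19 pairs of site and gRNA3 peak (0 to 121 bp). In 18 of the 19 pairs the summit lay within 50 bp and in 6 it lay inside the 23 bases, whereas it did so in none of the 6 pairs with a broken-seed site. Pairs of the same site are not independent. The 6 pairs come from 4 sites, with 3 from the Gm21149 site, and 3 of the 19 come from the Il33 target. Fold enrichment overlapped between the classes, with 1.87 to 80.3 (median 8.46) at the intact-seed sites and 4.80 to 10.97 (median 6.47) at the broken-seed sites. The former include the Il33 target, with 54.0-, 31.7- and 80.3-fold enrichment in gRNA3 replicates 1, 2 and 3. The highest value at another intact-seed site was 28.6. These ranges pool the 3 libraries, while fold is comparable within a library.

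**Figure D4:**
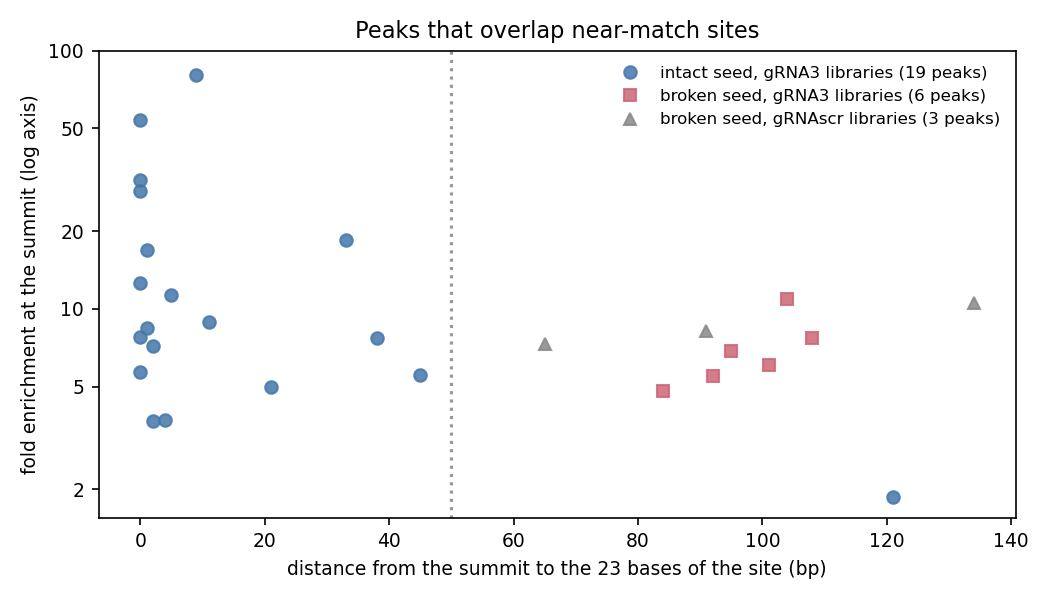
Each point is a peak that overlaps a near-match site, placed by the distance in bp from its summit to the 23 bases of the site and by its fold enrichment at the summit on a log axis. Of the 19 gRNA3 peaks at intact-seed sites 18 lie left of the dotted line at 50 bp, while the 6 gRNA3 peaks (84 to 108 bp) and the 3 gRNAscr peaks (65 to 134 bp) at broken-seed sites lie right of it. The 6 peaks come from 4 sites and the 3 gRNAscr peaks from 1 of these.

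The total number of mismatches ordered the sites differently from the run of matching bases. Of 6478 sites that matched gRNA3 over at least 8 PAM-proximal bases but had more than 5 mismatches in all, 33, 62 and 100 had a peak in gRNA3 replicates 1, 2 and 3, and 0, 1 and 0 in gRNAscr replicates. In at least 1 gRNA3 library it was 106 of them (1.64%, 1.34 to 1.98%), beside 0.403% of the broken-seed sites (0.110 to 1.03%), which had fewer mismatches. Of all sites before NGG, 0.0197% had a peak in at least 1 gRNAscr library and 0.121% in at least 1 gRNA3 library. With a run of 10 bases or more, 45 of 371 had a peak in at least 1 gRNA3 library (12.1%, 8.99 to 15.9%). With 8 or 9 bases it was 61 of 6107 (0.999%, 0.765 to 1.28%), an interval that overlaps that of the broken-seed sites. Among intact-seed sites with at most 5 mismatches the shares were 4 of 21 (19.05%, 5.45 to 41.9%) for runs of 10 bases or more and 4 of 58 (6.90%, 1.91 to 16.7%) for runs of 8 or 9. These are shares of sites within the same 3 libraries, and no test over sites was made.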

How the data were processed

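Anti-FLAG ChIP-seq libraries (3 per guide) were assigned to gRNA3 or gRNAscr by their labels. The authors trimmed reads with Trim Galore 0.6.4, aligned them to mm10 with Bowtie2 2.3.4.1 and called peaks in each library with MACS2 2.2.7.1 at an extension size of 204 bp, without pooling replicates, and the printed command names no control. Each deposited peak carries a score made from its q-value, which was not used, a fold enrichment, which is the authors' ratio of summit pileup to local background, and the −log10 of its p-value and q-value, also as deposited. Fold and rank are comparable within a library.

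The guide was the on-target sequence of the supplementary alignment, which begins with C. Its first base was set to G, as in a drawing of the study. Every site followed by NGG on the assembled chromosomes of GRCm38.p6 was scanned (Python 3.11.15, numba 0.67.0), and 1-based positions were set against the peaks and GENCODE M21. The scan was tested on simulated data, where 100% of 400 planted sites were recovered. Libraries were compared by two-sided exact permutation tests, and shares carry exact Clopper-Pearson 95% intervals (scipy 1.17.1), which cover counting error only. Named sites were every broken-seed site with a peak, with at most 3 mismatches, or (at most 10) with at most 4 mismatches and its only seed mismatch at position 13 or 14. The Il33 target was named too. Of the intact-seed sites with a peak in at least 2 gRNA3 libraries, those with a peak in all 3 were named. Other named sites were chosen after their values were seen. The sites and rules were chosen with earlier results of these data known. Alternatives were stricter q-value and fold limits, other distances, seed lengths, PAMs and mismatch limits, the genomic first base, repeats or copies left out, each library left out, and the replicate number as a block.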

Additional observations from a re-analysis of the deposited data

Results flagged for a closer look

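The share of sites with a peak, intact-seed minus broken-seed, differed between the guides by 6.65 percentage points, and this was singled out because the same contrast was positive in all 3 gRNA3 libraries (3.70 to 8.46 percentage points) and -0.101 percentage points in all 3 gRNAscr libraries, which is the same site, of the sequence with 23 copies, in each. Without sites that share their 20 bases, or with summits within 50 bp, 0 broken-seed sites had a call with gRNAscr, and the guide difference was 6.67 and 6.33 percentage points. The two-sided exact permutation test of the difference gave p = 0.1, the smallest p these 6 libraries allow. The number of peaks also differed between libraries, from 88 to 6685, and its part in the difference was not tested. With 197, 2052 and 6685 peaks, gRNA3 replicates 1, 2 and 3 gave 3.70, 7.49 and 8.46 percentage points. With 293, 1163 and 88 peaks, gRNAscr replicates 1, 2 and 3 each gave -0.101.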

How the results depend on the processing

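Of 123 alternative values over 21 settings, 101 kept their direction or stayed within 1.5 times the count, and none reversed. The side of the threshold was fixed beforehand, since no setting allowed a p under 0.1. Part of the 101 was fixed too. Number and share of broken-seed sites change direction together, and a replicate block leaves a difference in means as it is. Leaving out any gRNAscr library changed no value, since each had the same 1 broken-seed site and no intact-seed site with a peak. A kept direction says nothing about size, and some differences that kept it changed much in size, as given below. Counting summits within 50 bp, or sites with at most 4 mismatches (102 sites), gave 0 broken-seed sites with a peak in at least 1 gRNA3 library, 0 in at least 1 gRNAscr library and a difference of 0 in number and share. A peak within 200 bp gave 2 sites with gRNAscr. With the genomic first base C (570 sites) 1 site had a gRNA3 peak and 0 a gRNAscr peak. A seed of 10 bases (1050 sites) gave 8 sites with a gRNA3 peak, 2 of them in at least 2 gRNA3 libraries and no gRNAscr library. A seed of 12 bases (1065 sites) gave 10 and 4. Sites with runs of 8 or 9 bases count as broken with a seed of 10, and those with runs of 8 to 11 with a seed of 12. The guide difference became 3.67 and 5.33 sites (both exact permutation p = 0.1). Admitting NAG PAMs (1915 sites) gave 9 and 3 sites with gRNA3 and gRNAscr. Leaving out sites that share their 20 bases (876 left), chosen after seeing the data, gave 2 and 0. By overlap with a peak, 0.121% of all sites before NGG were called in at least 1 gRNA3 library and 0.0197% in at least 1 gRNAscr library. In at least 2 gRNA3 libraries and no gRNAscr library it was 0.0154%. No such share was computed for sites before NAG.

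Leaving out each library in turn, the mean difference ranged from 0 to 1.50 sites and from 0 to 0.151 percentage points, and the sites with a gRNA3 peak from 1 to 4. The low ends came from leaving out gRNA3 replicate 3. The guide difference in intact minus broken share ranged from 5.70 to 8.08 percentage points. The definition of a site moved it further, to 2.10 and 3.29 with a seed of 5 bases or NAG PAMs, 12.3 with a seed of 10, and 16.2 with a seed of 12, where the exact p rose from 0.1 to 0.4. The replicate numbers are shared by the guides but nothing in the labels ties them, and with the number as a replicate block the differences stayed 1 site, 0.101 and 6.65 percentage points, with exact permutation p = 1, 1 and 0.25, the smallest that 3 pairs allow. A correlation check of the pairing was not made on so few sites with a peak.

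The limits are the 3 libraries per guide, which cannot reach a p under 0.1, the uneven length of the lists, and the few sites with a peak, so that the counts of broken-seed sites overlapped by a peak rest on 4 positions. Depth was not known, and peaks below each caller threshold were not seen.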
